A study of Mus musculus with 6 samples.

Results

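Notch receptors, ligands and targets were followed as 9 genes in double-negative thymocytes of RAG1/Ezh2 double mutant and of RAG1-deficient mice. The genes were the receptors Notch1, Notch2, Notch3 and Notch4, the ligands Jag1 and Dll1, the DNA-binding partner Rbpj, and the targets Hes1 and Dtx1. Every probe set that the platform's annotation gives to exactly 1 gene, that gene being one of the 9, was taken. This gave 12 probe sets of 8 of the 9 genes, out of 8251 single genes named on the array, and no probe set was named for Jag1 here. Of the 12 probe sets, 7 (6 genes) were bright enough to test, and 5 were described by their values alone.

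The samples were total RNA of double-negative thymocytes, T cell precursors with neither CD4 nor CD8, on 6 single-colour Affymetrix mouse arrays. In 3 samples the mice were labelled RAG1/Ezh2 double mutants, and in the other 3 RAG1-deficient or RAG1 mutant only. By the labels, loss of RAG1 was therefore common to both groups. RAG1 is part of the recombinase of antigen receptor genes, and Ezh2 is the enzyme by which Polycomb repressive complex 2 methylates histone H3 at lysine 27, a mark of silenced genes. Strain, age, sex, the deleted exons, how Ezh2 was deleted and whether a group's samples came from separate animals are not given in the labels, so p-values cover the spread between these samples only, which may be technical. The titles come in 3 styles, called numbered, Rag and Thy here, with 1 array of each group in each style, and replicates 1, 2 and 3 of both groups have these styles in that order. In the RAG1-deficient group, replicates 1 and 3 carry WT in the title, while the description of each names RAG1. Titles of the Rag style name T cells and those of the other styles carry DN, while every description names double-negative thymocytes.

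Notch receptors are membrane proteins that are cut when a ligand of the Delta or Jagged family on a neighbouring cell pulls on them. The freed intracellular part enters the nucleus, joins the DNA-binding protein Rbpj and a Mastermind coactivator, and switches on targets such as the repressor Hes1 and the ubiquitin ligase Dtx1. In the thymus, Notch1 in the thymocyte and Delta-like ligand on thymic epithelium are required for commitment to the T lineage, and the signal is strong at the double-negative stages and drops after the pre-T cell receptor has formed. The ligands are therefore mainly genes of the stroma, and the receptors and targets genes of the thymocyte.

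Ezh2 checked the labels. Its scaled intensity was 291.5, 651 and 724 in double mutant replicates 1, 2 and 3, against 1435, 1641 and 1790 in RAG1-deficient replicates 1, 2 and 3, with no overlap. T precursor markers were bright on all 6 arrays, with a summed intensity of 48844 to 69913 over 9 markers in the double mutant and 53240 to 83541 in the RAG1-deficient group. One of them, Rag1, read 5394, 5226 and 5171 in double mutant replicates 1, 2 and 3, against 6933, 7241 and 7264 in RAG1-deficient replicates 1, 2 and 3. The loss of RAG1 was thus taken from the labels and not checked by these values. One array stood apart from its label: RAG1-deficient replicate 1 read 2973 for Cd8a and 8426 for Cd8b1, where no other array exceeded 81.3 and 164, so the summed double-positive markers (4 of 5 on the array) ranged from 227 to 497 in the double mutant and from 399 to 12160 in the RAG1-deficient group. Both Rag arrays also stood apart, with 55.2% (double mutant) and 55.1% (RAG1-deficient) of probe sets above the filter level of 86.5, against 61.5% to 64.2% on the other 4 arrays. Of the marker lists for other cells, that of natural killer cells (6 of 7 on the array, 4 bright enough to test) separated the groups, with a sum of 7232 to 9619 in the double mutant and of 2477 to 3939 in the RAG1-deficient group. Gzma, a granule protease, made up most of it and Gzmb, a related protease, also did not overlap, with readings of 414, 553 and 903 on double mutant arrays, against 191, 199 and 298.5 on RAG1-deficient arrays. Ncr1 and Klrd1, receptors that define these cells, overlapped between the groups, as did Prf1 and Eomes. The part of such cells in the differences below was not tested. The differences of the Notch genes are also given without RAG1-deficient replicate 1 and by pair. Leaving out a single array unbalances the title styles, so differences between styles enter such a value, here and below. A lower signal can mean fewer cells of a type or less RNA per cell, which bulk arrays cannot tell apart.

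Promoter windows (RefSeq, build GRCm38.p6) ran from 250 bases before to 50 bases after a transcript start. They matched 8 of the 9 genes in 10 windows, and Hes1 had no window. Counted over these windows, CG dinucleotides numbered between 5 (Notch4) and 41 (Notch2), and 9 of the 10 windows were above the median of 7 over all 32851 windows in the table. The windows of 4 genes are shown because these were the genes whose tested probe set differed the same way in all 3 pairs: Notch3 and Dtx1, lower in the double mutant, and Notch2 and Rbpj, higher. CG dinucleotides are in capitals, and each sequence runs 5′ to 3′ on the gene's own strand.
Notch3 promoter, minus strand, chr17:32166841-32167140, 25 CG: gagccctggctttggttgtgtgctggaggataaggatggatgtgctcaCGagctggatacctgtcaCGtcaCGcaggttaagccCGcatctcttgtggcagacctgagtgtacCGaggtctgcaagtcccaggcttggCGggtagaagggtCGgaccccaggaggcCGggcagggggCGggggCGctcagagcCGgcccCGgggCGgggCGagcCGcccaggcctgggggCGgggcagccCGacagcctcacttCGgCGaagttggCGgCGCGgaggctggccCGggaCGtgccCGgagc
Dtx1 promoter, minus strand, chr5:120711620-120711919, 26 CG: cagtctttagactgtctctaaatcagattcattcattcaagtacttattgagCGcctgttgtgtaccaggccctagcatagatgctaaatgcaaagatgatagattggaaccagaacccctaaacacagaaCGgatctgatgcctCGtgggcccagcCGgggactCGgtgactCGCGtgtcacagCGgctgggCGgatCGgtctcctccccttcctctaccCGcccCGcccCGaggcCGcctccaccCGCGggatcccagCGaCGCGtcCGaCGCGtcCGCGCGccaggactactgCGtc
Notch2 promoter, plus strand, chr3:98013288-98013587, 41 CG: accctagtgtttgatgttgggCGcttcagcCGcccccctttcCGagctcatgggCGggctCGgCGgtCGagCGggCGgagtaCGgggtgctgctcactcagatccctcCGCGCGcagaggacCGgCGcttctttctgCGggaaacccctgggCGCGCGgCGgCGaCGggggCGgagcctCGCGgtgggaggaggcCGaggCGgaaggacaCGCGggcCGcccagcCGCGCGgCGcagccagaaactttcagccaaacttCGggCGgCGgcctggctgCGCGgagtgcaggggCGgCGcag
Rbpj promoter, plus strand, chr5:53590096-53590395, 26 CG: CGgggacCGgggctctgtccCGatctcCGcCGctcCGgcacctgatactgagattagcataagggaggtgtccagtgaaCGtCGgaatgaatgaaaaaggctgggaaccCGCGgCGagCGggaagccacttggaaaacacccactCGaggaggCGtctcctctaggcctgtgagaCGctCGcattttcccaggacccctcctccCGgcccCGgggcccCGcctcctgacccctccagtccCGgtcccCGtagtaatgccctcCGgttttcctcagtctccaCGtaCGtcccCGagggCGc
The windows of the genes that were lower and of those that were higher both held more CG dinucleotides than the median window. The letters TGGGAA, the core of the Rbpj binding motif, were searched on both strands. They occurred in both windows of Rbpj (2 matches and 1 match) and in none of the other 8 windows. The promoter of Hes1, without a window, was not searched. Of all windows in the table, 25.6% held at least 1 match. Both windows of Rbpj overlap each other, and these matches are a description of letters, not of binding.

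None of the 7 tested probe sets passed the test in the double mutant against the RAG1-deficient group. The fit was limma across all 7642 tested probe sets on log2(intensity + 23), with Benjamini-Hochberg adjustment and a threshold of 0.05. With group alone in the model (the unpaired fit), 0 were called higher and 0 lower, against 0.0393% and 0% of all tested probe sets, and 0 of the 7 had an unadjusted p under 0.05 (background 2.29% higher and 0.903% lower). When title style entered the model as a block (the paired fit), again 0 were called higher and 0 lower, against 0.563% and 0.105% of all tested probe sets. Ezh2, the mutated gene, differed by -1.60 on the log2 scale. It did not pass in the unpaired limma fit (adjusted p = 0.332) and passed in the paired one (adjusted p = 0.0261). Absence of a call in the unpaired fit therefore does not show that a gene was unchanged. At an unadjusted p under 0.05 the paired limma fit held 2 of the 7 as lower (Notch3 and Dtx1) and 0 as higher, against 5.4% and 7.73% of all tested probe sets. The groups overlapped in all 12 probe sets, while 4.21% of all tested probe sets were higher and 2.92% lower without overlap. The median log2 difference of the 7 was -0.21, with a range of -0.40 to 0.44, and that of all tested probe sets was -0.0021.

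**Figure D1:**
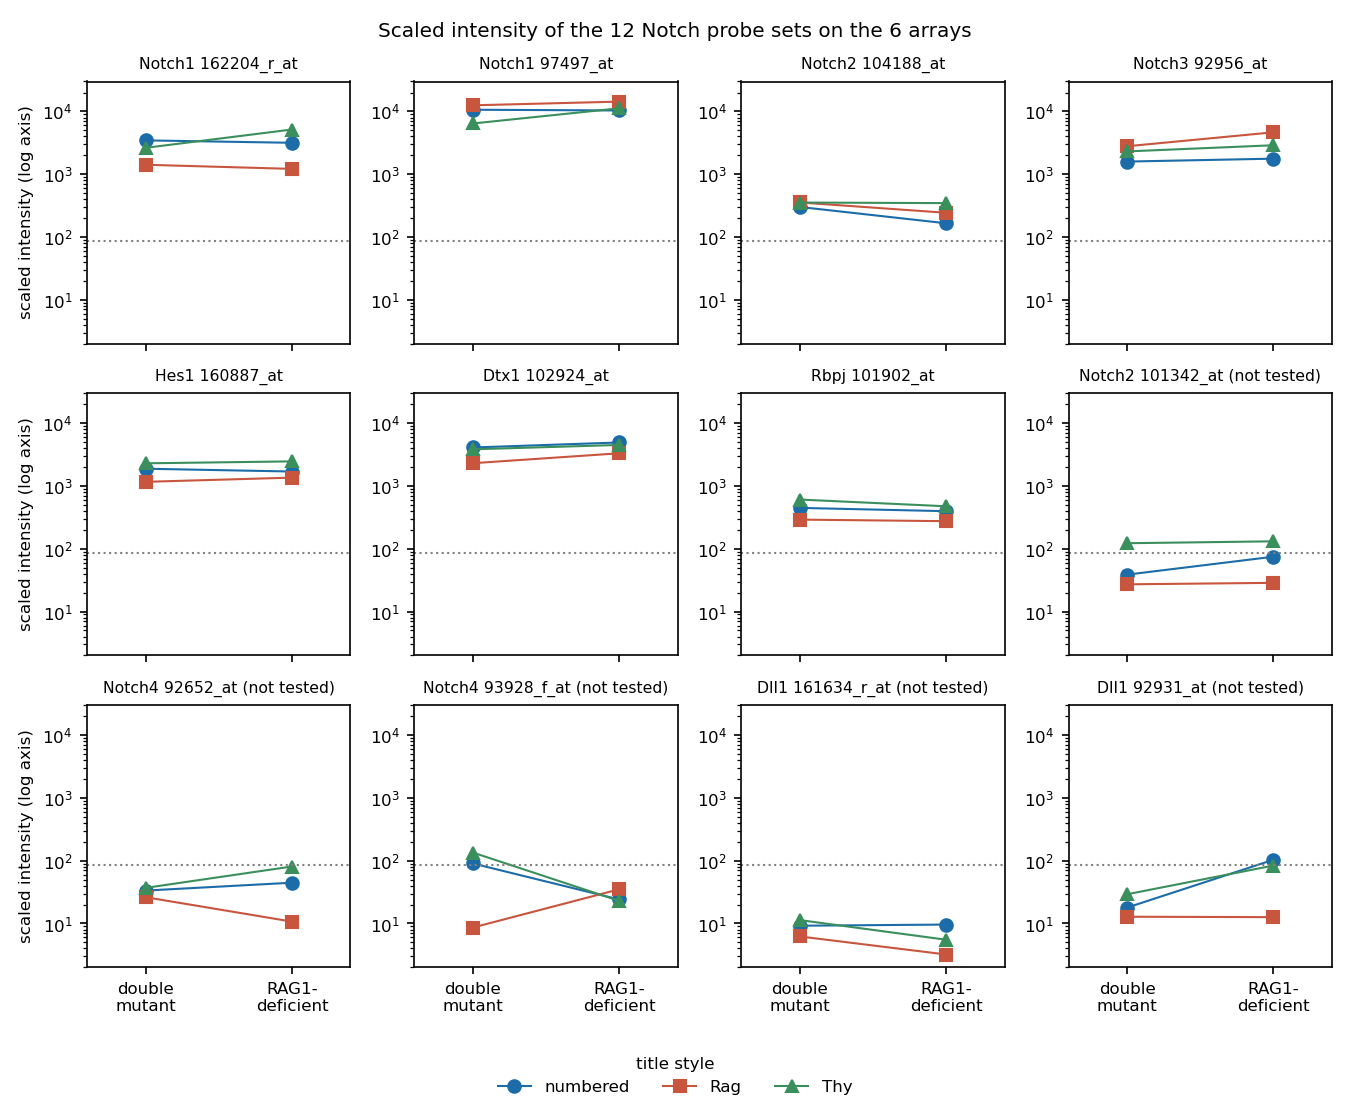
Scaled intensity (log axis) of the 12 probe sets on each array, with double mutant on the left and RAG1-deficient on the right of each panel, and a line joining the 2 arrays of a title style. The dotted line is the filter level of 86.5. The groups overlap in every panel, and the 5 probe sets that were not tested read between 3.2 and 135.

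Notch1, the receptor needed for T lineage commitment, was read by a bright and a dimmer probe set. The bright one (97497_at) read 10647, 12521 and 6429 in double mutant replicates 1, 2 and 3, against 10364, 14339 and 11218 in RAG1-deficient replicates 1, 2 and 3. Only the Thy double mutant array lay clearly below the rest, and the other 5 arrays formed 1 range. The group means were 9866 ± 3120 in the double mutant and 11974 ± 2092 in the RAG1-deficient group (SD, n = 3 each), a log2 difference of -0.32 ± 0.29 (SE) with a 95% interval of -0.99 to 0.35 (limma, adjusted p = 1.0). By pair the log2 difference was 0.04 (numbered), -0.20 (Rag) and -0.80 (Thy), and without RAG1-deficient replicate 1 the unpaired difference was -0.42.

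The dimmer probe set of Notch1 (162204_r_at) read 3459, 1414 and 2631 in double mutant cells, against 3165, 1215 and 5153 in RAG1-deficient cells. Here both Rag arrays were the lowest, whereas on the bright probe set the Rag array was the highest of each group. Its log2 difference was -0.21 ± 0.52 (SE), with a 95% interval of -1.40 to 0.99, and by pair it was 0.13, 0.21 and -0.96 in the numbered, Rag and Thy pairs. Both probe sets placed the Thy double mutant array below its RAG1-deficient partner, and they disagreed on the Rag pair. Without the Thy pair the paired difference of the dimmer probe set was 0.17, with the sign turned, and without RAG1-deficient replicate 1 the unpaired one was -0.10.

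Notch3, a receptor expressed in early thymocytes and itself a target of Notch signalling there, was lower in the double mutant in each of the 3 pairs. It read 1589, 2789 and 2307 in double mutant replicates 1, 2 and 3, against 1769, 4652 and 2893 in RAG1-deficient replicates 1, 2 and 3. The groups overlapped, since the RAG1-deficient numbered array lay below 2 of the 3 double mutant arrays. The means were 2229 ± 604 in the double mutant and 3105 ± 1453 in the RAG1-deficient group (SD, n = 3 each), a ratio of 0.718. The log2 difference was -0.40 ± 0.37 (SE), with a 95% interval of -1.25 to 0.44 in the unpaired limma fit (adjusted p = 1.0). In the paired limma fit the interval was -0.73 to -0.08 and the adjusted p was 0.293. The pairs differed by -0.15 (numbered), -0.73 (Rag) and -0.32 (Thy) on the log2 scale, and the unpaired difference was -0.75 without RAG1-deficient replicate 1 and -0.06 without RAG1-deficient replicate 2.

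Notch2, a receptor best known from B cells and myeloid cells, had 1 tested probe set (104188_at) that was higher in the double mutant in each pair. It read 300.4, 355 and 354 in double mutant cells, against 165, 243 and 346 in RAG1-deficient cells. The double mutant arrays lay close together, and the RAG1-deficient Thy array lay among them. The means were 336 ± 31.0 in the double mutant and 251 ± 90.8 in the RAG1-deficient group (SD, n = 3 each). The log2 difference was 0.44 ± 0.29 (SE), with a 95% interval of -0.23 to 1.11 in the unpaired limma fit (adjusted p = 1.0) and of -0.03 to 0.90 in the paired one (adjusted p = 0.401). By pair it was 0.78, 0.51 and 0.03 in the numbered, Rag and Thy pairs, and without RAG1-deficient replicate 1 it was 0.19. The second probe set of Notch2 (101342_at) was not tested: it read 38.8, 27.2 and 123 in double mutant cells, against 74.9, 28.7 and 132 in RAG1-deficient cells, lower in the double mutant in each pair and so opposite in sign to the brighter one. Summed B lineage markers (6 of 7 on the array) ranged from 1317 to 1794 in the double mutant and from 1590 to 2333 in the RAG1-deficient group, and summed myeloid markers (7 of 7) from 2008 to 2540 in the double mutant and from 1964 to 4253 in the RAG1-deficient group. Summed dendritic cell markers (6 of 6) ranged from 3964 to 15691 in the double mutant and from 4101 to 23006 in the RAG1-deficient group. The part of these cells in the Notch2 values was not tested.

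Notch4, a receptor known mainly from endothelium, was dim on all arrays. Its probe set 92652_at read 33.4, 26.2 and 36.9 in double mutant cells, against 44.6, 10.7 and 80.8 in RAG1-deficient cells, at no point above the filter level. The other one (93928_f_at), of a type that can detect related transcripts, read 90.3, 8.6 and 135 in double mutant cells, against 24.1, 35.0 and 22.9 in RAG1-deficient cells. It lay above the filter level on 2 double mutant arrays and on 0 RAG1-deficient arrays, and both probe sets changed order from pair to pair. Endothelial markers were low as well: of the 6 of 8 on the array, only Pecam1 was bright enough to test, and Cdh5, Tek and Tie1 lay under the filter level on every array. Their summed intensity was 251 to 610 in the double mutant and 385 to 715 in the RAG1-deficient group.

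Dll1, a Delta-family ligand, had 2 probe sets, and neither was tested. The first (92931_at) read 17.9, 12.8 and 29.2 in double mutant cells, against 104, 12.6 and 83.7 in RAG1-deficient cells. Only RAG1-deficient replicate 1, the array with the Cd8a and Cd8b1 signal, was above the filter level. The second (161634_r_at) read 3.2 to 11.3 over all 6 arrays. Of the markers of thymic epithelium, the usual source of such ligands, 7 of 8 were on the array, with a sum of 670 to 2680 in the double mutant and of 634 to 2845 in the RAG1-deficient group. Foxn1, Krt5 and Krt14, which define that tissue, were under the filter level on all 6 arrays, while Aire, at 130 to 217, and Epcam, at 116 to 236, were above it on all 6. Krt8 and Krt18 differed between the title styles: Krt8 read 975 and 522 in the numbered and Rag double mutant arrays and 1132 and 856 in the RAG1-deficient arrays of those styles, against 48.7 (double mutant) and 27.3 (RAG1-deficient) in the Thy arrays.

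Dtx1, a direct Notch target that in turn modulates the receptor's turnover, was lower in the double mutant in each of the 3 pairs. It read 4118, 2314 and 3853 in double mutant replicates 1, 2 and 3, against 4951, 3329 and 4521 in RAG1-deficient replicates 1, 2 and 3. The RAG1-deficient Rag array lay below 2 double mutant arrays, so the groups overlapped. The means were 3428 ± 974 in the double mutant and 4267 ± 840 in the RAG1-deficient group (SD, n = 3 each), a ratio of 0.803. The log2 difference was -0.34 ± 0.28 (SE), with a 95% interval of -0.99 to 0.31 in the unpaired limma fit (adjusted p = 1.0) and of -0.60 to -0.07 in the paired one (adjusted p = 0.278, the lowest of the 7). The pairs differed by -0.26 (numbered), -0.52 (Rag) and -0.23 (Thy), and without RAG1-deficient replicate 1 the unpaired difference was -0.22.

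Hes1, the classical target of the Notch complex and a repressor of other genes, differed least between the groups among the 7. It read 1890, 1168 and 2304 in double mutant cells, against 1705, 1363 and 2474 in RAG1-deficient cells. In both groups the Rag array was the lowest and the Thy array the highest. The means were 1787 ± 575 in the double mutant and 1847 ± 569 in the RAG1-deficient group (SD, n = 3 each), with a log2 difference of -0.06 ± 0.32 (SE). The 95% interval was -0.79 to 0.67 in the unpaired and -0.35 to 0.23 in the paired limma fit (adjusted p = 1.0 and 0.882), so differences of either sign within these bounds remain possible. By pair it was 0.15, -0.22 and -0.10 in the numbered, Rag and Thy pairs, and without RAG1-deficient replicate 1 it was -0.09.

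Rbpj, the DNA-binding partner through which Notch activates its targets, read 449, 292 and 610 in double mutant cells, against 398, 276 and 476 in RAG1-deficient cells. As for Hes1, the Rag arrays were the lowest and the Thy arrays the highest. The log2 difference was 0.19 ± 0.32 (SE), with a 95% interval of -0.54 to 0.93 in the unpaired and of -0.16 to 0.55 in the paired limma fit (adjusted p = 1.0 and 0.645). It was above 0 in each pair, at 0.16, 0.08 and 0.34 in the numbered, Rag and Thy pairs, and at 0.24 without RAG1-deficient replicate 1. Over the 7 probe sets, then, 2 were lower and 2 higher in all 3 pairs, against 17.1% and 18.8% of all tested probe sets, and 5 lay below 0, against 50.4% of all tested probe sets.

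**Figure D2:**
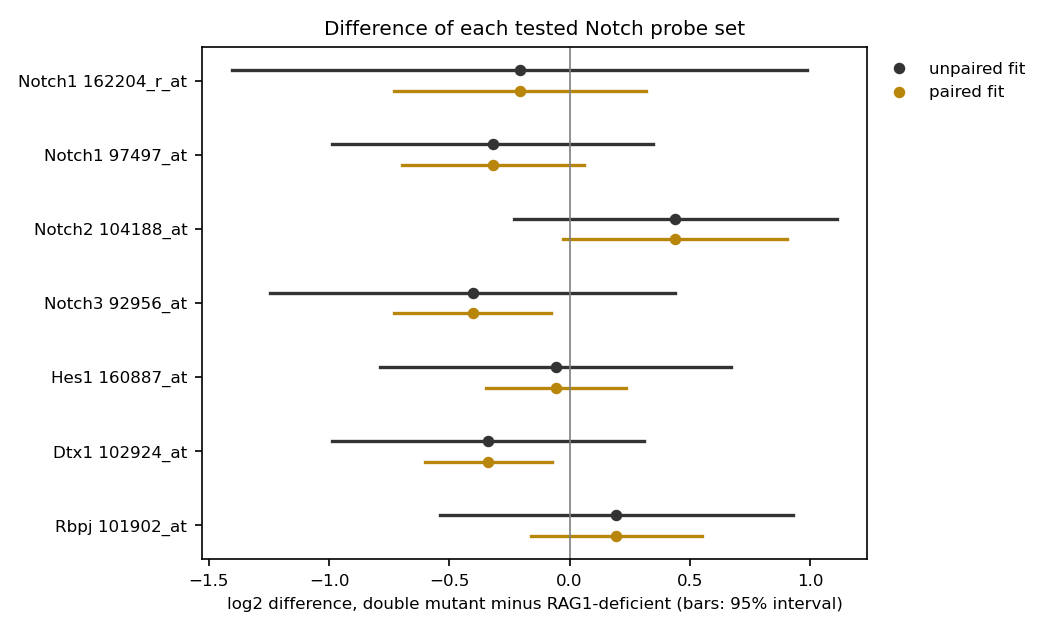
Log2 difference, double mutant minus RAG1-deficient, of each tested probe set (points) with its 95% interval (bars) in the unpaired and the paired limma fit. Every unpaired interval spans 0, and in the paired fit those of Notch3 and Dtx1 lie below 0 before adjustment for the 7642 probe sets tested.

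By share of the sum of squares, the spread of these genes over the arrays lay more between title styles than between groups. Title style held 95.4% of the sum of squares of Hes1 on the log2 scale, 91.2% of Rbpj, 84.1% of the dimmer Notch1 probe set, 78.3% of Notch3 and 74.0% of Dtx1. It held 55.9% of the bright Notch1 probe set and 45.3% of Notch2. The group held between 0.584% (Hes1) and 36.4% (Notch2). Over all tested probe sets the median share was 72.1% for title style and 7.24% for group. The share of a style has more degrees of freedom than that of the group, which by itself makes it larger. For Notch2, the 45.3% and 36.4% therefore do not rank style above group. The sizes are a description.

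The direction of the style effect split the Notch genes. On the Rag arrays, Hes1, Rbpj and Dtx1 lay below their mean over all arrays by log2 deviations of -0.47, -0.47 and -0.43, and the dimmer Notch1 probe set by -0.93. On the same arrays Notch3 and the bright Notch1 probe set lay above their mean, by 0.52 and 0.34. Notch3 and the bright Notch1 probe set thus ranked the arrays differently from Hes1, Rbpj and Dtx1. The Rag arrays had fewer probe sets above the filter level, as given above, and a log2 ratio of 3' to 5' signal for beta-actin, a measure of RNA quality, of 1.47 (double mutant) and 1.17 (RAG1-deficient), against 0.31 to 0.99 on the other 4 arrays. Summed erythroid markers (4 of 6 on the array) ranged from 1222 to 30765 in the double mutant and from 571 to 30902 in the RAG1-deficient group, with the Thy array the lowest in each group. The part of these measures in the style effect was not tested. Between the groups that ratio averaged 0.92 in the double mutant and 0.86 in the RAG1-deficient group (exact permutation test, two-sided, p = 0.9, where the smallest p that 3 arrays against 3 allow is 0.1), and that of Gapdh averaged -0.06 in the double mutant and 0.11 in the RAG1-deficient group (exact permutation test, p = 0.6).

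**Figure D3:**
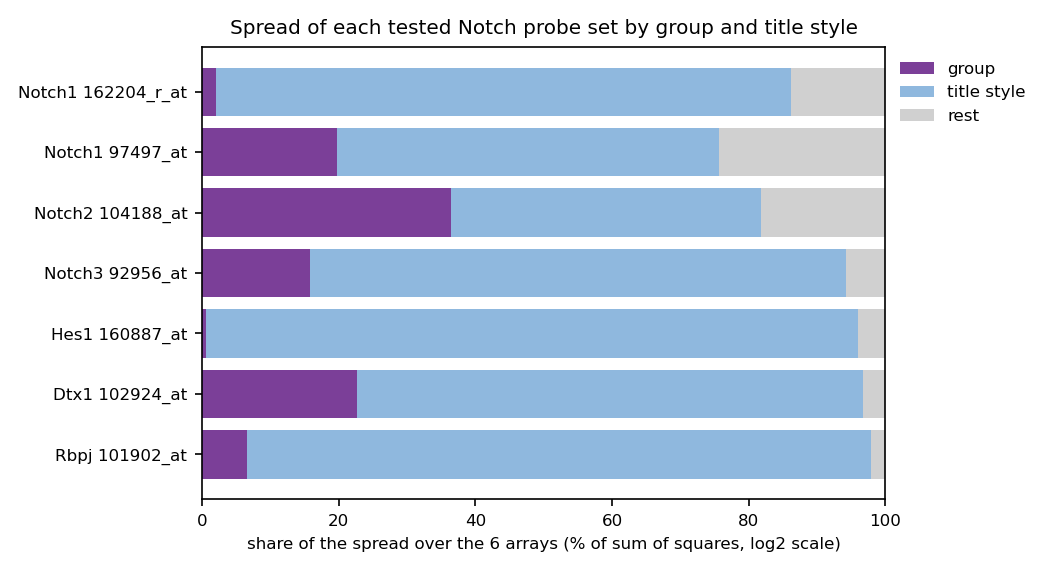
Share of the sum of squares over the 6 arrays (log2 scale, in percent) that lies between the groups, between the title styles and in the rest, for each tested probe set. Title style takes the largest part for all 7 probe sets, from 45.3% (Notch2) to 95.4% (Hes1).

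Over the 6 arrays, the genes whose log2 pattern was most like that of a Notch gene differed for each one. For Notch1 (bright probe set) they were Atp5d, Kmt2a and Ssbp4 with Pearson r of 0.995, 0.994 and 0.985, and 28 probe sets exceeded 0.95. For Notch3 they were Ino80e, Ss18l2 and Stx18 (r of 0.999, 0.991 and 0.988), with 34 above 0.95. For Hes1 they were Usp9x, Tcea2 and Rnf20 (r of 0.993, 0.989 and 0.987), with 92 above 0.95. For Dtx1 they were Cx3cr1, Gh and Zfp398 (r of 0.998, 0.997 and 0.995), with 63 above 0.95. The 6 arrays share title styles, so they are not independent, and these values are a description of 6 arrays among 7642 probe sets. No other Notch gene was among the 3 most like Notch1, Notch3, Hes1 or Dtx1, and partners of Notch2 and Rbpj were not ranked. Between the tested Notch probe sets r ran from -0.885 (Rbpj and the bright Notch1 probe set) to 0.914 (Rbpj and Hes1).

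The rest of the pathway was read through 76 further genes in 8 lists, of which 45 had a probe set and 37 were tested by their brightest one. As with the 7 tested probe sets above, 0 were called higher and 0 lower in the unpaired and in the paired limma fit. At an unadjusted p under 0.05, the unpaired fit held 1 as higher and 1 as lower, against 2.29% and 0.903% of all tested probe sets, and the paired fit 1 as higher and 5 as lower, against 7.73% and 5.4%. The median log2 difference of the 37 was -0.03, against -0.0021 for all tested probe sets. In all 3 pairs 13 (35.1%) were lower and 6 (16.2%) higher, where all tested probe sets gave 17.1% and 18.8%.

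Ligands, glycosyltransferases and proteases act at the surface. Of the 5 other ligands listed, 2 had a probe set, Dlk1 and Jag2, and no probe set was named for Dll4. Only Dlk1, an atypical ligand, was tested, with a log2 difference of 0.17 ± 0.36 (SE). Jag2 was dim at 17.4, 15.3 and 18.4 in double mutant cells, against 76.8, 24.5 and 19.4 in RAG1-deficient cells. The fringe enzymes, which add sugars that tune the choice of ligand, had 3 tested members with log2 differences of 0.21 ± 0.61 (SE) for Lfng, 0.10 ± 0.23 (SE) for Rfng and 0.10 ± 0.23 (SE) for Mfng. Among 5 tested proteases that cut the receptor, Furin was at -0.19 ± 0.23 (SE), the gamma-secretase subunit Aph1a at -0.22 ± 0.27 (SE) and its partner Psenen at 0.05 ± 0.21 (SE). Each of these differences was smaller than its standard error.

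On their brightest probe sets most tested genes of receptor turnover lay below 0, and none passed. Of 7 tested, 6 were below 0 and 4 were lower in all 3 pairs, against 50.4% and 17.1% of all tested probe sets. Fbxw7, the ubiquitin ligase subunit that marks active Notch for destruction, read 235, 392 and 294 in double mutant cells, against 336, 735 and 561 in RAG1-deficient cells. It was lower in each pair, and the groups overlapped by 1 array on each side. Its log2 difference was -0.74 ± 0.33 (SE), with an adjusted p of 1.0 in the unpaired and 0.124 in the paired limma fit. It was -1.04 without RAG1-deficient replicate 1, and -0.87 in the paired fit without the whole numbered pair. Numb, an inhibitor that directs the receptor to endocytosis, was at -0.32 ± 0.25 (SE) on one probe set and at 0.43 ± 0.28 (SE) on another, so its direction depends on the probe set. The dimmer of these was higher in the double mutant in all 3 pairs and without overlap. The brighter one was at -0.16 without RAG1-deficient replicate 1. Sel1l, first known as a regulator of Notch in the worm Caenorhabditis elegans, was at -0.34 ± 0.33 (SE) and, on a dimmer probe set, at 0.13 ± 0.37 (SE).

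The nuclear coactivators lay lower in the double mutant in all 4 tested cases and in all 3 pairs of each, and none passed. Over all tested probe sets 17.1% were lower in all 3 pairs and 2.92% lower without overlap, which was so for 3 of these 4. Crebbp, a histone acetyltransferase recruited by Mastermind, read 1053, 1099 and 1120 in double mutant cells, against 1401, 1250 and 1612 in RAG1-deficient cells, with no overlap. Kat2b, another acetyltransferase, read 1014, 967 and 973 in double mutant cells, against 1203, 1134 and 1540 in RAG1-deficient cells, also with no overlap. The double mutant arrays lay closer together than the RAG1-deficient ones for both genes. On the log2 scale Crebbp differed by -0.37 ± 0.20 (SE) and Kat2b by -0.37 ± 0.21 (SE), with paired limma adjusted p of 0.294 and 0.327. Snw1, an adaptor that binds Rbpj and Notch, was at -0.24 ± 0.20 (SE), again without overlap (paired adjusted p = 0.475). On the dimmer second probe sets the groups overlapped: Kat2b was lower in all 3 pairs there, and Snw1, not tested on it, was higher in 2 of 3. Without RAG1-deficient replicate 1 the difference was -0.37 for Crebbp, -0.42 for Kat2b and -0.31 for Snw1. Of the 7 tested corepressors 5 were above 0 and 2 below, where 50.4% of all tested probe sets lay below 0. Tle4 was at 0.47 ± 0.36 (SE), Tle5 at -0.29 ± 0.24 (SE) and Ctbp2 at 0.38 ± 0.41 (SE). The Ctbp2 difference was 0.70 without RAG1-deficient replicate 1 and as low as 0.06 with another array left out. In the paired fit without the whole numbered pair it was 0.54. A second probe set of Ctbp2 was at 0.95 ± 0.45 (SE) and did not pass (paired adjusted p = 0.228).

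Only 2 of the 9 genes of the Hes and Hey family list were tested, and neither passed. The log2 difference was -0.11 ± 0.29 (SE) for Hes6 and -0.03 ± 0.51 (SE) for Hey1. Hes2, Hes3 and Hes5 were dim. Hes2 read 81.1, 66.1 and 46.7 in double mutant cells, against 141, 70.3 and 145 in RAG1-deficient cells, and was not tested.

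Known Notch targets of T cell precursors went in both directions, with 4 of 8 tested above 0 and 4 below, where 50.4% of all tested probe sets lay below 0. Igf1r, the receptor of insulin-like growth factor, read 1315, 1080 and 2042 in double mutant replicates 1, 2 and 3, against 646, 451 and 339 in RAG1-deficient replicates 1, 2 and 3, with no overlap. Its log2 difference of 1.58 ± 0.32 (SE) was the largest of the 37 in size and did not pass in the unpaired (adjusted p = 0.301) or the paired limma fit (adjusted p = 0.061). By pair it was 1.0, 1.22 and 2.51 in the numbered, Rag and Thy pairs, and without RAG1-deficient replicate 1 it was 1.81. Ptcra, which encodes the invariant chain of the pre-T cell receptor, differed the other way by -0.66 ± 0.24 (SE), without overlap. It passed neither in the unpaired limma fit nor in the paired one, where the adjusted p was 0.0827. By pair Ptcra was at -0.36, -0.81 and -0.80, and without RAG1-deficient replicate 1 at -0.82. Il7r, the survival cytokine receptor, was at -0.39 ± 0.24 (SE) with a paired adjusted p of 0.24. Among the alternatives run, Igf1r and Ptcra passed in 1 alone, the paired limma fit to the numbered and Thy arrays (adjusted p = 4.84e-09 and 0.0457). With 2 arrays per group, that fit takes its spread largely from pooling over probe sets.

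**Figure D4:**
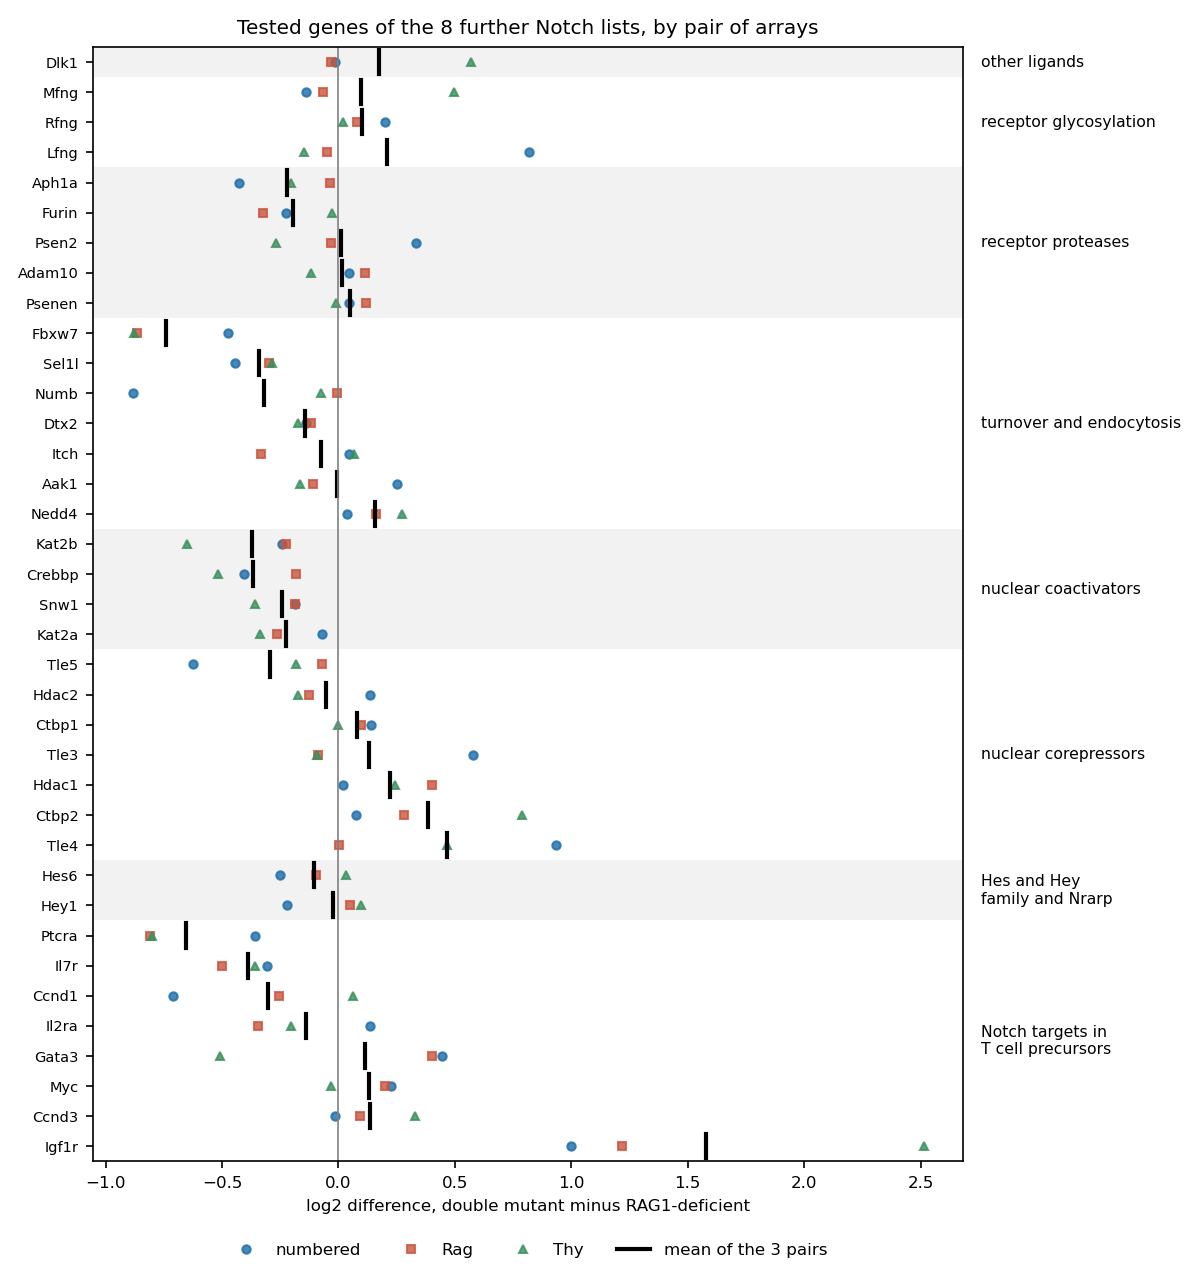
Log2 difference, double mutant minus RAG1-deficient, of the 37 tested genes of the 8 lists, with 1 symbol for each pair of arrays and a black bar for their mean. All 4 tested nuclear coactivators have every pair below 0, and Igf1r is the gene farthest from 0, at 1.58.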

How the data were processed

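The deposited table gives a linear intensity per probe set and array, for 12488 probe sets. Which software made it is not given in the sources used here. Its values show that the authors had scaled every array to 1 common mean, since the 2% trimmed means of the arrays ran from 500.29 to 500.37, so a shift common to most transcripts would not show. The 66 control probe sets were left out of the tests. Gene names came from the platform's annotation, looked up through Entrez numbers in a RefSeq table of GRCm38.p6, and 0 symbols changed. A probe set was tested if 3 or more of the 6 arrays exceeded 86.5, the 40th percentile of the table, on the scale log2(intensity + 23), where 23 is the 20th percentile; changes of dim probe sets come out too small on it. The number of arrays limits the precision, and no detection calls were used.

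The comparison used limma 3.58.1 under R 4.3.3 (lmFit, eBayes with trend, two-sided). Differences are double mutant minus RAG1-deficient, and standard errors are those of the unpaired fit. In simulated arrays of this size, with 200 of 7642 probe sets changed by 3 on the log2 scale, the unpaired fit recovered 86.5% with 1 false call and the paired fit 90.5% with 5. The 7 tested Notch probe sets differed by -0.40 to 0.44. Recovery of changes of that size was not simulated, so these shares do not tell how many such changes would be missed. Deviations from the group means correlated within a title style at 0.570 (numbered), 0.736 (Rag) and 0.602 (Thy), all above the limit of 0.1, so the paired fit is given as well; the pairing is read from titles and data, not from a stated litter, day or batch.

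All 9 genes, and the 3 genes of each list with the smallest unadjusted p in the unpaired fit, are named. A gene of a list was counted by its brightest probe set. Likeness was measured by Pearson correlation for Notch1, Notch3, Hes1 and Dtx1. The genes, lists and tests were chosen with earlier results of these data known. Alternatives covered scaling, pseudocount, filter, variance trend, pairing, probe set and single arrays or pairs. Plots were made in Python 3.11.15 with matplotlib 3.10.9.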

Additional observations from a re-analysis of the deposited data

How the results depend on the processing

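No Notch gene passed in any of the 16 alternatives run: the adjusted p of the 7 tested probe sets was at least 0.278 throughout, 104 of their 112 values kept their sign, and 8 turned it. With single arrays left out, the log2 difference ranged from -0.78 to 0.25 for the dimmer Notch1 probe set, from -0.27 to 0.22 for Hes1 and from -0.044 to 0.46 for Rbpj, while Notch3 lay between -0.75 and -0.059 and Dtx1 between -0.51 and -0.079. Among the 21 further pathway genes named, the sign turned for 7: Lfng (-0.30 to 0.80), Hey1 (-0.44 to 0.39), Mfng (-0.094 to 0.20), Dlk1 (-0.13 to 0.45), Psenen (-0.033 to 0.14), Hes6 (-0.32 to 0.10) and Rfng (-0.0068 to 0.23). Another 10 of the 21 kept their sign and moved by over 1.5 times, among them Ctbp2 (0.062 to 0.70), Sel1l (-0.60 to -0.11), Aph1a (-0.32 to -0.032), Numb (-0.47 to -0.16) and Furin (-0.28 to -0.048). Of the 16 tested but not named, 13 turned sign with an array left out and 7 with a pair left out. Each such fit is unbalanced over title styles, so differences between styles enter it. With a pair left out of the paired fit, among the Notch genes and the 21 named, the sign turned for Lfng (-0.098) and Hey1 (0.073) without the numbered pair, for Hes1 (0.022) without the Rag pair, and for the dimmer Notch1 probe set (0.17), Mfng (-0.10) and Dlk1 (-0.024) without the Thy pair. The cause of these turns was not tested.

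With the replicate block (the paired fit), 43 probe sets were called higher and 8 lower over the whole table, against 3 and 0 without it, and Ezh2 passed, with a log2 difference of -1.60 (adjusted p = 0.0261). No call of a Notch gene or of a further pathway gene changed with it. Quantile scaling gave 5 higher and the stricter filter 6. Leaving out single arrays gave 0 to 6 higher and 0 lower, with Ezh2 between -1.83 and -1.21. Fitted to 2 pairs, the block model gave 127 higher and 64 lower when the Rag pair was absent, 12 and 2 when the numbered pair was, and 3 and 0 when the Thy pair was. The fit without the Rag pair called Ezh2 (-1.75) and, of the further pathway genes, 1 higher (Igf1r) and 1 lower (Ptcra), where the other alternatives called 0. The 3' to 5' difference between the groups, with single arrays left out, ranged from -0.21 to 0.37 for beta-actin and from -0.30 to -0.0056 for Gapdh.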
